A study of Mus musculus with 6 samples.

Results

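Cytosolic ribosomal protein genes numbered 80 among the 47069 genes of the count table, 49 for the large subunit (Rpl) and 31 for the small subunit (Rps). They were chosen by name alone, as protein-coding genes whose symbol is Rpl or Rps followed by a number and at most 1 of the letters a, l or x, together with Rplp0, Rplp1, Rplp2 and Rpsa. The counts come from LβT2 cells, a mouse gonadotrope line derived from a pituitary tumour in which a gonadotropin promoter drove SV40 T antigen, used as 1 line at passage 14. All 6 libraries were made from cells given 2 nM gonadotropin-releasing hormone (GnRH) for 40 min, so no library without GnRH enters the comparison. In 3 libraries the trypsinized cells were lysed at once (fresh), and in 3 they were first kept in RNA-Best, a buffer for preserving RNA in intact cells, for 4 days or longer at 4 °C. The comparison asks whether storage in the buffer left transcript levels as they were in fresh cells.

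A ribosome is built of ribosomal RNA and a set of proteins, most of them present as a single copy. The small subunit reads the mRNA, and the large subunit joins amino acids and releases the growing chain through an exit tunnel. Ribosomal protein mRNAs are short, stable and among the most abundant in dividing cells, and many of them start with a run of pyrimidines (the 5′ terminal oligopyrimidine or TOP motif), through which growth signals set how well they are translated. Their genes have left many processed copies in the genome, which complicates the counting of short reads.

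Many members of this family carry a TOP motif, so windows of 30 bases around a pyrimidine run near the start site are shown for some of the members with the lowest and the highest fold changes that had one. The sequences are those of RefSeq on GRCm38.p6, on the strand of the gene, with the run of pyrimidines in capitals. The first 4 belong to members with low values after storage, Rpl39 (chrX:37085225-37085254, minus strand), Rpl13a (chr7:45128722-45128751, minus), Rps27l (chr9:66946053-66946082, plus) and Rps27 (chr3:90213632-90213661, minus).
Rpl39: cgagtcatccaTCCCCCCCTaagctccgcc
Rpl13a: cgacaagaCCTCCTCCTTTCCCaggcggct
Rps27l: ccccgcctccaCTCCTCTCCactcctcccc
Rps27: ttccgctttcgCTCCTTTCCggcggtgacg
The other 4 belong to members with small differences, Rpl14 (chr9:120571501-120571530, plus), Rpl28 (chr7:4792952-4792981, plus), Rps24 (chr14:24490710-24490739, plus) and Rps6 (chr4:86857349-86857378, minus).
Rpl14: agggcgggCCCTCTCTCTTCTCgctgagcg
Rpl28: gcctctcgtgTCTCTCTTTCCgtctccggc
Rps24: gagcggTCCTCTTTTCCTCCTCTCCagctc
Rps6: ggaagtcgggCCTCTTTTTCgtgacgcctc
The runs of Rpl39, Rps27l and Rps24 lie wholly before the RefSeq start, and the runs are no evidence of a TOP motif at the end of the mRNA. Over the 33 tested members with such a run, 11 had it before the start, 15 across it and 7 after it. A RefSeq start was matched by symbol for 60 of the 80 members. Within 30 bases of the start, on the gene's strand, 34 of the 60 (56.7%) held a run of at least 8 pyrimidines (C or T), against 25.8% of 27025 genes. Runs of at least 8 purines (A or G) were present in 13.3% of the members and 28.7% of all genes. The letters CTTTCC, which can lie inside such a run, stood on the gene's strand of the 300-base window in 41.7% of the members and 16.01% of all genes, and on either strand in 53.3% and 29.3%. The median log2 fold change was -0.29 in the 33 tested members with a pyrimidine run and -0.34 in the 24 without one. The median was below 0 with and without a run, and a missing run says only that these letters are not in this window.

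Depth differed between the groups, with 40535204, 47438746 and 14477304 counts in the fresh libraries and 8773187, 4909418 and 11999363 in the RNA-Best libraries. The gonadotrope markers Lhb, Cga, Gnrhr, Nr5a1, Foxp2 and Tgfbr3l were detected in every library, while Fshb had 0 counts in all 6. Some of them moved with storage, with log2 fold changes of -0.36 for Cga (edgeR adjusted p = 7.56e-14), -0.21 for Nr5a1 (5.33e-08), 0.43 for Gnrhr (5.66e-11) and 0.23 for Foxp2 (2.55e-05). Of 15 markers of other pituitary, vascular, blood and connective tissue cells, 11 stayed under 1 CPM (counts scaled to a common library size) in every library, 4 of them at 0 throughout (Prl, Sox2, Ptprc and Col3a1). Their summed level was 47.9 to 48.5 CPM in fresh and 45.0 to 47.7 CPM in RNA-Best libraries, most of it Pecam1. Pecam1 had a log2 fold change of -0.15 (edgeR adjusted p = 0.015) and Tshb, at 0.765 to 2.28 CPM, one of 0.91 (0.0035). The part of these markers in the ribosomal protein results was not tested. Across all genes, edgeR's quasi-likelihood test at a false discovery rate of 5% called 50.8% of the 14736 genes tested, 24.8% lower and 26% higher in RNA-Best, with a median log2 fold change of -0.0074. No label tells if cultures were separate for each library, so the p-values measure the spread between libraries, which may be technical.

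Ribosomal protein genes took a smaller share of the counts after storage. Together the 80 genes held 2.87%, 2.82% and 2.93% of all counts in the fresh libraries and 2.29%, 2.32% and 2.36% in the RNA-Best libraries. The lowest fresh library lay above the highest RNA-Best library, and the means were 2.87% ± 0.0550 (SD, n = 3) and 2.33% ± 0.0340 (SD, n = 3). Large subunit genes fell from 1.67% ± 0.0268 to 1.37% ± 0.0178 (SD, n = 3 each). Small subunit genes fell from 1.21% ± 0.0283 to 0.960% ± 0.0167 (SD, n = 3 each). The RNA-Best mean was thus 0.818 of the fresh mean for Rpl and 0.796 for Rps. In bulk libraries a lower share cannot be assigned to fewer cells of a type or to less RNA per cell, as these cannot be told apart.

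The balance between the subunits shifted slightly. Summed Rpl counts divided by summed Rps counts came to 1.39, 1.39 and 1.37 in the fresh libraries and to 1.43, 1.41 and 1.42 in the RNA-Best libraries. The groups did not overlap, with means of 1.38 ± 0.0102 and 1.42 ± 0.00971 (SD, n = 3 each) and a difference of 0.0380. Single genes moved this difference by over 1.5 times. Without Rps14 the ratio was 1.48204, 1.49171 and 1.47031 in fresh and 1.51905, 1.49191 and 1.49998 in RNA-Best libraries, and the difference was 0.0223. Fresh 2 and RNA-Best 2 were then nearly level. Without Rps24, the member with the most counts, the difference was 0.0584, with 1.49 to 1.51 in fresh and 1.56 to 1.57 in RNA-Best libraries. These sums are scores over chosen genes and were given no p-value.

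**Figure D1:**
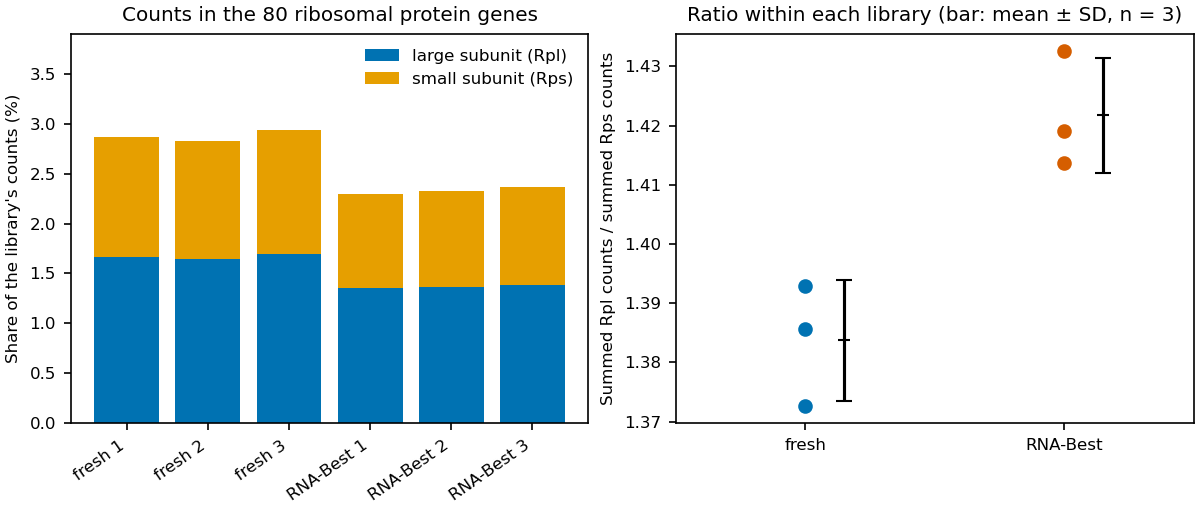
Left, the percent of each library's counts in Rpl (blue) and Rps (orange) genes, stacked, for 3 fresh and 3 RNA-Best libraries. Right, the ratio of summed Rpl to summed Rps counts in each library (points) with mean ± SD (n = 3), on an axis that does not start at 0. The fresh bars reach 2.82% to 2.93% and the RNA-Best bars 2.29% to 2.36%, while the ratio rises from a mean of 1.38 to 1.42.

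Gene by gene, 77 of the 80 members passed the filter on low counts, 46 Rpl and 31 Rps. Of these, 75 were lower in RNA-Best by edgeR at a false discovery rate of 5%, against 24.8% of all genes tested, 1 was higher (Rpl23a), against 26% of all genes tested, and 1 was not called (Rpl24). All 31 Rps genes were lower, as were 44 of 46 Rpl genes. In the same 75 genes each RNA-Best library lay below each fresh library, which was the case in 27.1% of all genes tested, while the reverse order, seen in 0 members, was present in 30.4%. The median log2 fold change was -0.29 for Rpl (interquartile range -0.35 to -0.24) and -0.33 for Rps (-0.40 to -0.27), and the median gene stood 17.7% (Rpl) and 19.7% (Rps) below its fresh mean. The differences were small but larger than the spread between libraries, since the median standard error was 0.031 and the median SD of log2 CPM within a group was 0.0393 in fresh and 0.0403 in RNA-Best libraries. Log2 fold changes of -0.25 or less were found in 56 members, and of -0.4 or less in 11, of which 4 were Rpl and 7 Rps.

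The shift was present in each RNA-Best library. Relative to the fresh mean, the median Rpl gene stood at a log2 value of 0.0024, -0.02 and 0.03 in the fresh libraries and at -0.30, -0.31 and -0.27 in the RNA-Best libraries. The median Rps gene stood at -0.0015, -0.03 and 0.04 and at -0.37, -0.30 and -0.29. The 2 subunits overlapped widely, as Rpl values ran from -0.49 to 0.17 and Rps values from -0.61 to -0.18. When the fold change itself had to exceed 1.2 (glmTreat in edgeR), 36 members were lower (20 Rpl and 16 Rps) and 0 higher, against 2.82% and 8.67% of all genes tested (11.5% in either direction).

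**Figure D2:**
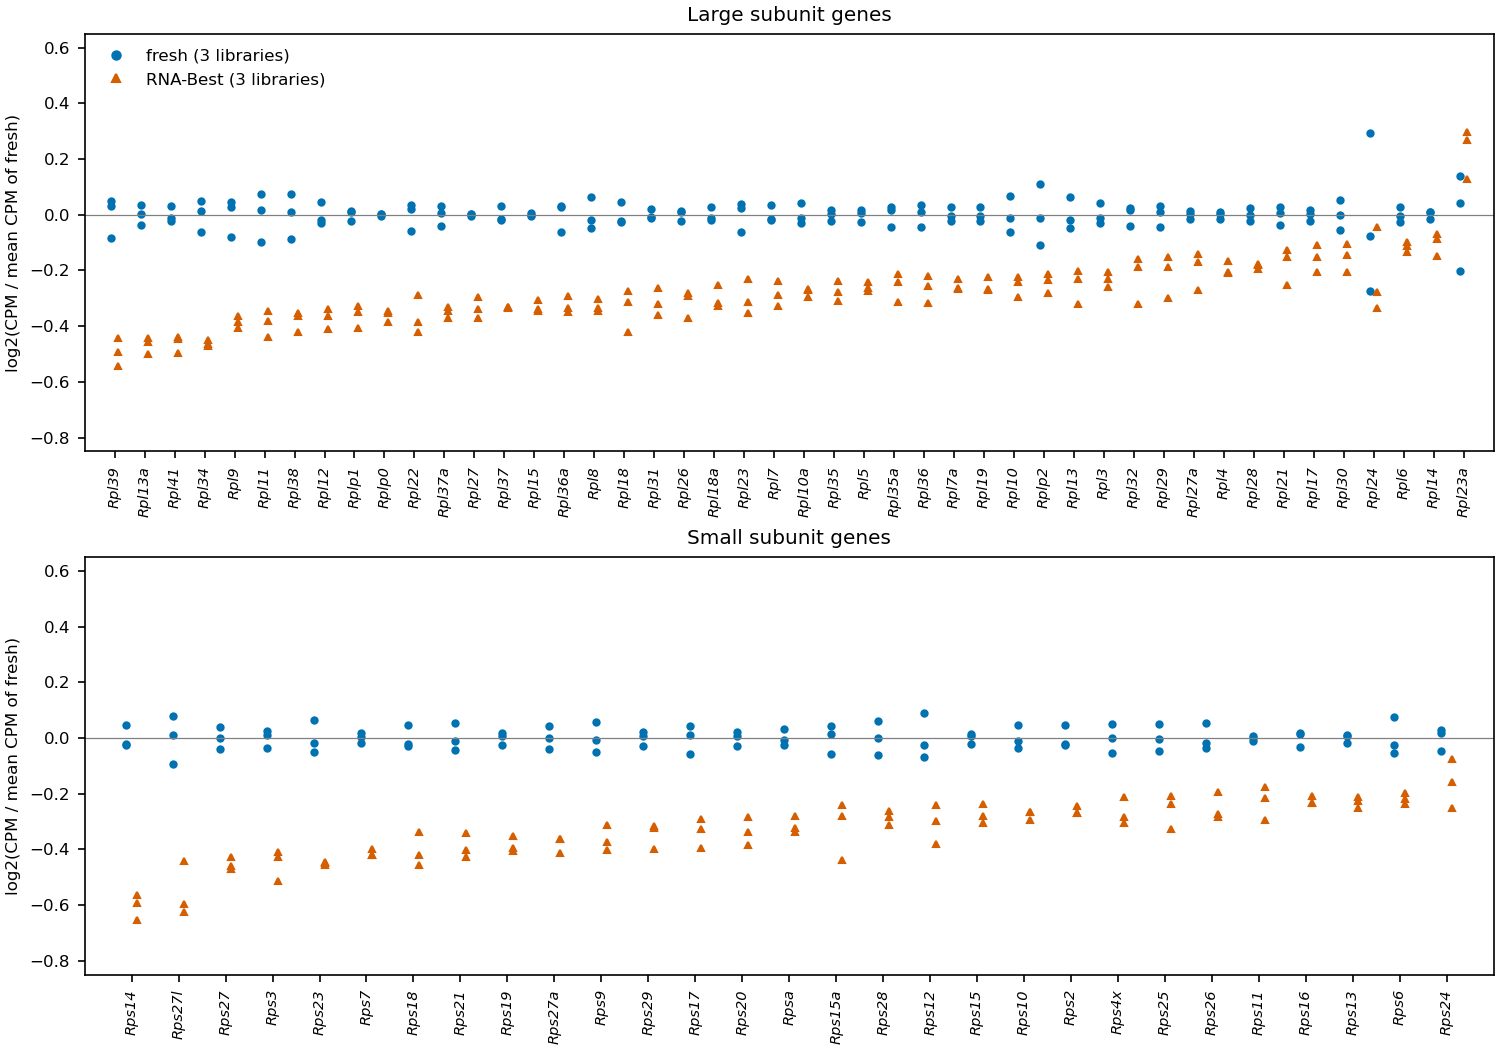
Log2 of CPM over the mean fresh CPM for tested Rpl genes (top) and Rps genes (bottom), without genes that are not reported here, ordered by fold change, with 3 fresh libraries as circles and 3 RNA-Best libraries as triangles. Triangles lie below all circles in each gene shown except Rpl24 and Rpl23a, where they overlap.

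The ribosomal stalk, which recruits translation factors to the large subunit, was lower in all 4 of its genes, against 24.8% of all genes tested, with a median log2 fold change of -0.37 (-0.23 with an offset for exonic length). Rplp0 (chr5:115559467-115563727), the scaffold protein of the stalk and a common reference gene for qPCR, had 666, 662 and 665 CPM in fresh and 523, 509 and 521 CPM in RNA-Best libraries. The fresh values nearly coincided and all lay above the RNA-Best values, with a log2 fold change of -0.37 (SE 0.027, edgeR adjusted p = 6.86e-14). Rplp1, which forms dimers with Rplp2 on that scaffold, had 519, 534 and 531 CPM in fresh and 398, 414 and 420.4 CPM in RNA-Best libraries and a log2 fold change of -0.37 (edgeR adjusted p = 2.97e-13). Rplp2 had 309, 289 and 336 CPM in fresh and 256, 269 and 265 CPM in RNA-Best libraries. Its fresh libraries were spread most among the stalk genes, and its log2 fold change was the smallest of the 4, -0.25 (edgeR adjusted p = 1.11e-06). Rpl12, at the stalk base, had a log2 fold change of -0.38.

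Rpl5 and Rpl11, which carry the 5S ribosomal RNA and bind Mdm2 when they are free of the ribosome, were both lower, against 24.8% of all genes tested. Rpl5 had 438, 428 and 441 CPM in fresh and 360.3, 363 and 369 CPM in RNA-Best libraries, and Rpl11 had 577, 534 and 601 CPM in fresh and 421, 438 and 449 CPM in RNA-Best libraries. In both genes each RNA-Best library lay below each fresh library, as in 27.1% of all genes tested. The log2 fold changes were -0.27 and -0.40, with a median of -0.33 (-0.30 with an offset for exonic length). Of the 8 listed proteins around the peptide exit tunnel 7 were lower and 1, Rpl23a, was higher, against 24.8% and 26% of all genes tested, with a median of -0.27. With an offset for exonic length 6 were lower and the median was -0.14. Rpl17 then lost its call (-0.05, edgeR adjusted p = 0.195). Rpl39 (chrX:37082520-37085402), a very short protein in the tunnel wall, had 171, 158 and 173 CPM in fresh and 119, 115 and 123 CPM in RNA-Best libraries. The log2 fold change of -0.49 (SE 0.039, edgeR adjusted p = 9.42e-13) was the lowest of the large subunit in the fit of all libraries without a length term. Rpl41 was lower than Rpl39 without fresh 1 (-0.479 against -0.467) and without fresh 3 (-0.482 against -0.470). Rpl34 was lower than Rpl39 with the exonic offset (-0.40 against -0.37), and Rpl9 with the transcript offset (-0.39 against -0.31).

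Rpl23a (chr11:78180932-78183584), at the tunnel exit where signal recognition particle docks, had 33.1, 35.4 and 27.9 CPM in fresh and 35.1, 39.5 and 38.7 CPM in RNA-Best libraries. The groups overlapped, as RNA-Best 1 was below fresh 2, and fresh 3 was the lowest library. The means were 32.1 ± 3.82 and 37.8 ± 2.33 CPM (SD, n = 3 each), with a log2 fold change of 0.17 (SE 0.067, edgeR adjusted p = 0.0348). This call was lost without fresh 1 (edgeR adjusted p = 0.0552), without fresh 3 (0.0956), without RNA-Best 2 (0.0953) and without RNA-Best 3 (0.208). It was also lost with no filter (0.114), in DESeq2 (0.0525), with an offset for GC content (0.116), after thinning (0.0536) and against a 1.2-fold change (1). The log2 fold change was larger, 0.32 and 0.35, with offsets for exonic and for transcript length (edgeR adjusted p = 0.000269 and 9.02e-05). Exons of other genes, Tlcd1 and Snord42b, covered 62.3% of its exonic length, and 36 near copies were found in the transcriptome, so its low count is uncertain.

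Rpl24 (chr16:55966275-55971435), which forms a bridge to the small subunit, was counted at a level far under that of the other tested members. Its deposited values were 123.67, 126.00 and 57.00 in the fresh and 27.33, 12.50 and 31.83 in the RNA-Best libraries, which gave 3.05, 2.66 and 3.94 CPM in fresh and 3.12, 2.55 and 2.65 CPM in RNA-Best libraries. The groups overlapped, and the log2 fold change of -0.13 (SE 0.187) was not called (edgeR adjusted p = 0.587). Exons of Gm28037 covered 47.0% of its exonic length. How reads shared by both genes were divided is not given in the sources used here.

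Among the other large subunit genes with the lowest values, Rpl13a (chr7:45125558-45128761), which also takes part in silencing of inflammatory mRNAs, had 724, 705 and 741 CPM in fresh and 527, 512 and 532 CPM in RNA-Best libraries, and changed by -0.48 on the log2 scale (SE 0.028, edgeR adjusted p = 4.17e-16). Rpl41 (chr10:128548114-128549305), which encodes the shortest ribosomal protein, had 469.6, 483 and 465 CPM in fresh and 347, 335 and 348 CPM in RNA-Best libraries and a log2 fold change of -0.47. In both genes the highest RNA-Best library was over 100 CPM under the lowest fresh library. Rpl34 had 164, 155 and 168 CPM in fresh and 119, 118 and 117 CPM in RNA-Best libraries, and Rpl9, near the stalk base, had 405, 376 and 410.2 CPM in fresh and 299, 308 and 304 CPM in RNA-Best libraries. Their log2 fold changes were -0.47 and -0.40. The RNA-Best libraries of Rpl34 lay closer together than its fresh libraries.

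The smallest differences that were still called in the large subunit without an offset belonged to Rpl14, Rpl6 and Rpl30. Rpl14 had 186, 183 and 186 CPM in fresh and 174, 177 and 167 CPM in RNA-Best libraries, with a log2 fold change of -0.12 (SE 0.032, edgeR adjusted p = 0.00218). Without RNA-Best 3 its log2 fold change was -0.09 and was not called (edgeR adjusted p = 0.0605), and after thinning all libraries to the smallest it was -0.057 (edgeR adjusted p = 0.318). Rpl6, which lies next to Rpl14 on the solvent side, had 466, 458 and 476 CPM in fresh and 426, 432 and 436 CPM in RNA-Best libraries and a log2 fold change of -0.13. Rpl30, a protein that binds kinked RNA, had 238, 221 and 229.6 CPM in fresh and 199, 208 and 213 CPM in RNA-Best libraries and a log2 fold change of -0.16. In all 3 genes each RNA-Best library was under each fresh library, by narrow margins.

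In the small subunit, Rps14 on chromosome 18, a protein of the platform, had the lowest fold change of all members in the fit of all libraries without an offset. Without RNA-Best 3 Rps27l was level with it (-0.616 against -0.615). With an offset for GC content Rps27l (-0.68), Rps23 (-0.56) and Rpl39 (-0.55) were lower than Rps14 (-0.54), and with the transcript offset Rps15a was (-0.51 against -0.44). Rps14 had 783, 781 and 820.0 CPM in fresh and 537, 505 and 526 CPM in RNA-Best libraries. The means were 795 ± 21.9 and 523 ± 16.5 CPM (SD, n = 3 each), and the log2 fold change was -0.61 (SE 0.029, edgeR adjusted p = 1.10e-18). Its share of all Rps counts was 6.51%, 6.63% and 6.64% in fresh and 5.70%, 5.24% and 5.39% in RNA-Best libraries, so its share was lower in each RNA-Best library than in any fresh library. Rps27l (chr9:66946086-66949516), a copy of Rps27 that p53 can induce, was next and had 147, 136 and 154 CPM in fresh and 94.4, 96.2 and 107 CPM in RNA-Best libraries, with a log2 fold change of -0.54 (SE 0.045, edgeR adjusted p = 2.61e-12). The parent gene Rps27 (chr3:90212522-90213651) had 261, 247 and 254 CPM in fresh and 185, 183 and 189 CPM in RNA-Best libraries. With a log2 fold change of -0.46 (SE 0.032), it lay close to its copy in the fit without an offset. With the GC offset Rps27l came to -0.68, while Rps27 was no lower than -0.51 in any fit run.

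Rps3 (chr7:99477896-99483738), which lines the entry channel of the mRNA, had 940.3, 912 and 950.1 CPM in fresh and 695, 654 and 703 CPM in RNA-Best libraries and a log2 fold change of -0.46 (edgeR adjusted p = 2.01e-15). Rps23, at the decoding centre, had 161, 157 and 171 CPM in fresh and 119, 119 and 119.7 CPM in RNA-Best libraries. The 3 RNA-Best libraries of Rps23 were almost level, and its log2 fold change was -0.45. Of 13 proteins in the head of the small subunit, all were lower, against 24.8% of all genes tested, with a median log2 fold change of -0.33 (-0.21 with an offset for exonic length) and a range from -0.46 (Rps3) to -0.24 (Rps16). Rpsa, which is also known as the laminin receptor, had 430.2, 435 and 447 CPM in fresh and 346, 360.2 and 349.8 CPM in RNA-Best libraries and a log2 fold change of -0.33 (edgeR adjusted p = 8.93e-12).

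Rps24 had the smallest difference of the small subunit in the fit without an offset. It had 991, 948 and 998 CPM in fresh and 822, 929 and 877 CPM in RNA-Best libraries, with a log2 fold change of -0.18 (SE 0.032, edgeR adjusted p = 1.46e-05). RNA-Best 2 came close to fresh 2, so the gap between the groups was narrow. Rps6, the substrate of the S6 kinases, had 329, 324 and 354 CPM in fresh and 285, 288 and 293 CPM in RNA-Best libraries and a log2 fold change of -0.22, and those of Rps13 and Rps16 were both -0.24. In Rps6 each RNA-Best library lay below each fresh library. Rps25, which viral internal ribosome entry sites need and which the study uses as a house-keeping gene, had 293, 284 and 304 CPM in fresh and 234, 254 and 249 CPM in RNA-Best libraries. The means were 293 ± 10.1 and 245.5 ± 10.4 CPM (SD, n = 3 each), a log2 fold change of -0.27 (SE 0.033, edgeR adjusted p = 1.56e-08).

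Copies of ribosomal protein genes with tissue-bound expression were not detected above the floor. Rpl3l, the striated muscle copy of Rpl3, had 2, 2 and 0 counts in fresh and 0, 0 and 1 in RNA-Best libraries. Rpl10l, the testis copy of Rpl10, had 1 count in fresh 2 and 0 in the other 5 libraries. Rpl39l had 0 counts in all 6, where 3 counts correspond to between 0.0632 CPM in fresh 2 and 0.611 CPM in RNA-Best 2. These 3 genes failed the filter and were not tested. Their parents were abundant and lower in RNA-Best. Rpl3, near the peptidyl transferase centre, had a log2 fold change of -0.24 (edgeR adjusted p = 1.16e-08), and Rpl10, which completes the large subunit late in its assembly, one of -0.26 (edgeR adjusted p = 1.97e-08).

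The 80 genes lie on 19 chromosomes, 4 of them on the X (Rpl10, Rpl36a, Rpl39 and Rps4x). All 4 were lower, against 24.8% of all genes tested, with a median log2 fold change of -0.31 (-0.20 with an offset for exonic length). Rps4x had 606, 584 and 628 CPM in fresh and 498, 490.4 and 523 CPM in RNA-Best libraries and a log2 fold change of -0.27 (edgeR adjusted p = 1.78e-09). The X-linked members thus lay within the range of the autosomal ones.

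Levels per kb of merged exon spanned a wide range in fresh cells, from 3.12 CPM per kb (Rpl24) to 1058 (Rplp1), with a median of 171 and quartiles of 108 and 288. The highest of the large subunit were Rplp1 with 1058 ± 15.03 and Rpl36 with 625 ± 17.6, and of the small subunit Rps15 with 527 ± 6.37 and Rps21 with 471 ± 16.3 CPM per kb (SD, n = 3 each). In both pairs the levels were further apart than the sum of their SDs. At the low end stood Rpl24 with 3.12 ± 0.637 and Rpl23a with 37.95 ± 4.52, and in the small subunit Rps19 with 63.1 ± 0.953 and Rps15a with 65.04 ± 2.32, which did not differ beyond their spread. Per kb of the longest coding transcript the fresh median was 335. The order of levels was almost the same after storage, with a Spearman correlation of 0.993 across the 77 genes, which share libraries and are not independent.

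**Figure D3:**
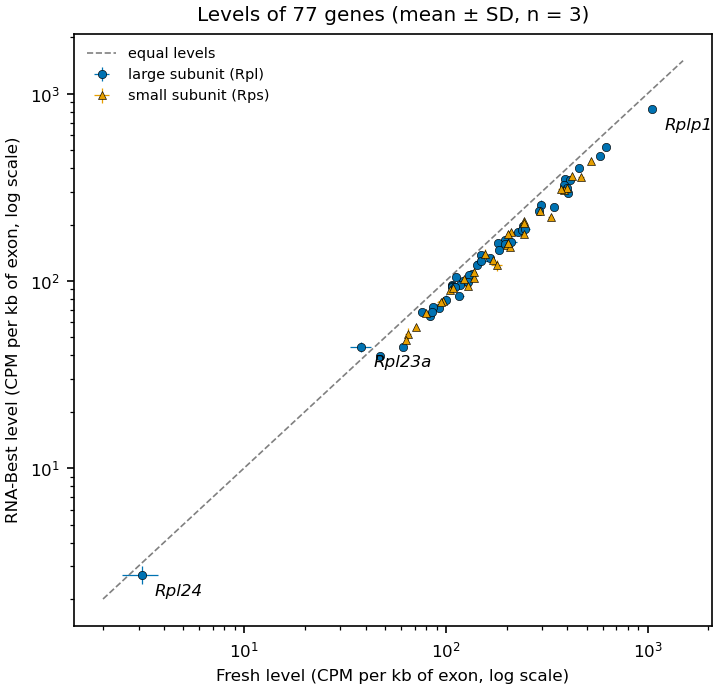
Mean level in fresh (x axis) and RNA-Best (y axis) libraries in CPM per kb of exon, both on log scales, for 46 Rpl and 31 Rps genes, with SD bars (n = 3). The points run parallel to and below the dashed line of equal levels, Rpl23a lies above it, and Rpl24 stands apart near 3 CPM per kb.

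Merged exonic length moved with the fold change across all genes and had little relation to it among the members. Over 14677 tested genes with a length, log2 fold change and merged exonic length had a Spearman correlation of 0.52, so short genes tended to be lower in RNA-Best. Over the 77 members the correlation was 0.02, although Rpl36, the shortest, had 383 bp and Rps15a, the longest, 6270 bp. With the length of the longest coding transcript it was 0.15 over the members, 0.08 in Rpl and 0.22 in Rps. Rpl36 had a log2 fold change of -0.27 and Rps15a one of -0.33. In each of the 6 intervals of length that held members, their median lay below that of all genes. The interval from 5000 to 10000 bp held 2 members. The intervals were of merged exons, longer in the members than the longest coding transcript (median 1781 bp against 914 bp). Members and other genes of an interval therefore need not match in mRNA length. Between 1500 and 2000 bp the median was -0.31 for 18 members and -0.17 for all 927 genes, and between 3000 and 5000 bp it was -0.33 for 13 members and -0.04 for all 3699 genes. Abundance showed a similar pattern. Of 2480 genes with at least 100 CPM in fresh cells 47.5% were called lower, with a median of -0.06, and the 75 members among them were all lower, with a median of -0.32. At 200 CPM or more 56.1% of 943 genes were lower (median -0.10), with all 61 members (median -0.32). At 500 CPM or more 72% of 175 genes were lower (median -0.17), with all 16 members (median -0.34).

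**Figure D4:**
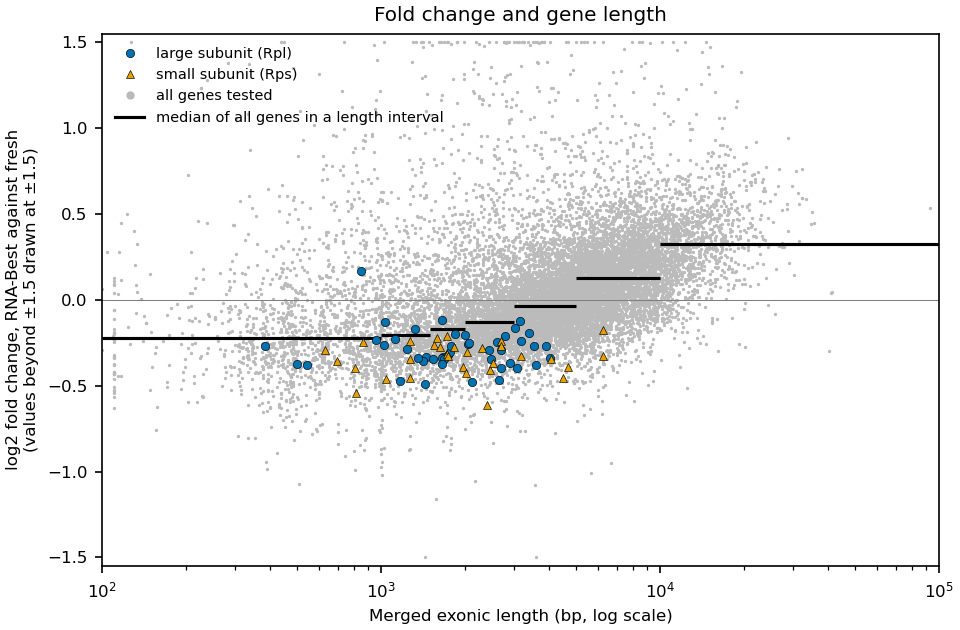
Log2 fold change against merged exonic length (log scale) for all tested genes (grey), Rpl genes (circles) and Rps genes (triangles), with the median of all genes in each interval of length as black bars. The black bars climb from -0.22 under 1000 bp to 0.32 above 10000 bp, while the medians of the members lie between -0.34 and -0.25 at the lengths they cover. The interval from 5000 to 10000 bp holds 2 members.

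A term for length in the edgeR fit made the differences smaller and left most calls in place. With an offset for merged exonic length in each library, 73 members were lower and 1 higher, against 24.8% and 15.9% of 14677 genes (40.6% in either direction), and the median log2 fold change was -0.21 for Rpl and -0.22 for Rps. Over the 77 members, merged exonic length and the log2 fold change under this offset had a Spearman correlation of -0.42, against 0.02 without the offset. Longer members were thus lower once it was applied. Merged exons of the members were longer than their longest coding transcript (median 1781 bp against 914 bp), so an offset for transcript length was added after the data had been seen. It left 58 members lower (32 Rpl and 26 Rps) and 1 higher, against 22.3% and 14% of the genes (36.4% in either direction), with medians of -0.15 and -0.16. Rps14 remained lower under both offsets, with log2 fold changes of -0.54 and -0.44, and so did Rps15a (-0.44 and -0.51). Rpl14 came to -0.01 and 0.03, Rpl6 to -0.08 and 0.01, and Rpl30 to -0.11 and -0.0013, none of them called with the offset for transcript length. Rpl14 was not called with the exonic offset either (edgeR adjusted p = 0.817). The offset for transcript length also ended the calls of Rplp2 (log2 fold change -0.09, edgeR adjusted p = 0.0538), which left the other stalk genes lower, of Rpl36 (-0.08, 0.0576), of Rps24 (-0.07, 0.0709) and of Rps6 (-0.06, 0.131). For Rps24 the exonic offset moved the other way, to -0.29 (edgeR adjusted p = 6.26e-09), so that it no longer had the smallest difference of its subunit.

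**Figure D5:**
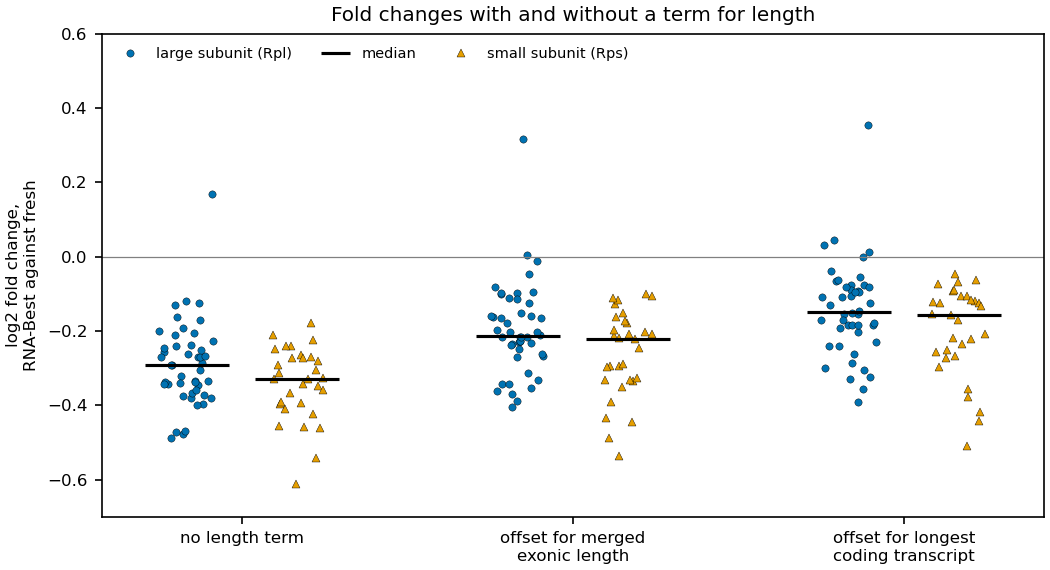
Log2 fold changes of the 46 Rpl (circles) and 31 Rps (triangles) genes without a term for length, with an offset for merged exonic length and with an offset for the longest coding transcript, with black bars at the medians. The medians move from -0.29 and -0.33 to -0.21 and -0.22 and then to -0.15 and -0.16.

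Counting bears on all of these values. Deposited values were not whole (by more than 0.001) in at least 1 library for each of the 77 tested members and in all 6 libraries for 55. Exons of another gene overlapped 37 members. A search of the annotated transcripts for copies of at least 90% identity over at least 50% of the shorter transcript found a median of 10 per member, from 0 to 94 (Rpl7a). Across the members the log2 fold change had a Spearman correlation of 0.32 with the number of copies, 0.39 with the overlapped share of exons, -0.05 with GC content and -0.09 with the fresh level (n = 77 genes each, not independent). Members with more copies or more overlap thus tended to differ less. The part of copies in these differences was not tested.

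The ribosomal proteins that the naming rule leaves out, among them Rps3a1, Fau and Rack1, were counted apart. Of 7 such genes 6 were lower (5 with the exonic length offset), against 24.8% of all genes tested, with a median log2 fold change of -0.33 over the list. Rack1, a scaffold on the head of the small subunit, had 851, 847 and 884 CPM in fresh and 654, 679.8 and 682 CPM in RNA-Best libraries and a log2 fold change of -0.37. Rps3a1 and Fau, whose product is cleaved into a ubiquitin-like part and a small subunit protein, had log2 fold changes of -0.37 and -0.43.

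Other TOP mRNAs were mostly lower. Of 13 genes for elongation factors and related proteins, 9 were lower, 1 was higher and 3 were not called, against 24.8% lower and 26% higher over all genes tested, with a median log2 fold change of -0.15. Eef1b2, an exchange factor of elongation factor 1, had 315, 301 and 318 CPM in fresh and 249, 227 and 256 CPM in RNA-Best libraries and a log2 fold change of -0.35. Eef1d (-0.26), Tpt1 (-0.23) and Eif3f (-0.23) were lower as well, and Eif4b was higher by 0.07 (edgeR adjusted p = 0.0438). With the exonic length offset 8 were lower and 0 higher. Eif4b then lost its call (0.04, edgeR adjusted p = 0.277), and Pabpc1 was lower (-0.14, edgeR adjusted p = 8.53e-05). Without it, Eef1a1, Pabpc1 and Nap1l1 were not called, and Eef1a1, the factor that brings tRNA to the ribosome, had 1899, 1922 and 1816 CPM in fresh and 1867, 1838 and 1874 CPM in RNA-Best libraries, with overlapping groups. Of 33 analysed genes for ribosome assembly, 13 were lower and 6 higher, against the same shares of 24.8% and 26%, with a median of -0.08. With the exonic length offset 16 were lower and 3 higher, with a median of -0.13. Eif6, which keeps the subunits apart until assembly is complete, had a log2 fold change of -0.41, and the box H/ACA proteins Nhp2 and Nop10 had values of -0.33 and -0.31. Of the same group, Gar1 was not called (-0.15, edgeR adjusted p = 0.103) and Dkc1 came to -0.10 (0.0432). Polr1a (0.31), the large subunit of RNA polymerase I, and the processome proteins Utp20 (0.33) and Heatr1 (0.31) were higher, but none of these 3 was called with the exonic length offset, where they came to 0.0029 (edgeR adjusted p = 0.998), 0.077 (0.323) and 0.14 (0.0749). The medians of the TOP and assembly lists thus stood between those of the ribosomal proteins and of all genes.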

How the data were processed

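Bulk mRNA libraries of LβT2 cells, 3 fresh and 3 RNA-Best, were used. The authors aligned single reads of 101 bp to GRCm38 and counted them per gene. The submitters' processing notes name STAR 2.5.1b and featureCounts 1.5.0-p1. The deposited values are estimated counts, partly fractional and not scaled for library size, and the setting that divided reads and the use of strand are not given in the sources used here. Columns named Stab were taken as the RNA-Best libraries. Samples were grouped by their labels.

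Counts were rounded and analysed in R 4.3.3 with the quasi-likelihood test of edgeR 4.0.16 on all genes (TMM scaling, factors 0.994 to 1.01, filterByExpr with a minimum count of 10), and adjusted p are Benjamini-Hochberg values over the 14736 genes tested. CPM, shares and ratios used the deposited values, and levels per kb and fold changes no pseudocount beyond that of edgeR. Positions, lengths and copies came from GENCODE M21, later than the M8 of the authors on the same assembly, which matched 46488 genes. Offsets were loess fits (span 0.5) per library. The edgeR fit without an offset, voom, DESeq2, DESeq2 size factors, no filter and the replicate block were tested on simulated data without a length trend. The offset fits and the fit against a 1.2-fold change were not. Depth ranged from 4909418 to 47438746 counts, a count of 0 allows up to 3 counts, and such limits cover counting error only.

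Members and lists were chosen with earlier results of these data known. Named are the 5 lowest and 5 highest fold changes per subunit, the 4 members named in the rule, copies and their parents, Rps25, the 2 highest and 2 lowest levels per kb in each subunit, the longest and shortest member, and members not called or not tested. Lists were the stalk, 5S particle, exit tunnel, head of the small subunit, X-linked members, ribosomal proteins outside the rule, other TOP mRNAs and ribosome assembly, and genes singled out of the last 3 were chosen after their values were seen. Scaling, filter, test (limma 3.58.1 voom, DESeq2 1.42.0), fold threshold, length and GC offsets, replicate block, thinning to 4909268 counts and single libraries were varied. Spike-ins and other assays of the study were not analysed here. Some genes that the naming rule covers are not reported here.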

Additional observations from a re-analysis of the deposited data

How the results depend on the processing

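The count of 76 called members (45 Rpl, 31 Rps) fell to 36 (20 Rpl, 16 Rps) against a 1.2-fold change, and came to between 59 and 76 under the other alternatives run, with the lowest count under the offset for transcript length, added after the data had been seen. The median log2 fold change of Rpl and Rps, -0.29 and -0.33, came to -0.34 and -0.37 with no filter on low counts, -0.21 and -0.22 with the length offset and -0.15 and -0.16 with the offset for transcript length. After thinning, that of Rpl came to -0.32. The difference in the Rpl to Rps ratio, 0.0380, came to 0.0584 without Rps24 and to 0.0223 without Rps14, the latter added after the data had been seen. Leaving out single libraries gave 74 to 76 members called (43 to 45 Rpl, 31 Rps), medians of -0.31 to -0.28 (Rpl) and -0.35 to -0.32 (Rps), differences in the share of counts of -0.575 to -0.520 percentage points around -0.549, and differences in the ratio of 0.0325 to 0.0426. Thinning every library to the smallest gave -0.547 and 0.0392 for these.

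Replicate numbers did not pair the libraries, as deviations of libraries with the same number from their group means had correlations of -0.00844, 0.0121 and -0.00770. With a replicate block 76 members were called, with medians of -0.29 and -0.33, and with the replicate block and the length offset together 74, with medians of -0.21 and -0.23.

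Of 627 comparisons of 33 named genes over 19 alternatives, 588 kept their direction and side of the threshold, 35 lost the call and 4 changed sign. The sign changed in Rpl24 with the length offset (0.0036), and with the offset for transcript length in Rpl24 (0.045), Rpl14 (0.032) and Rpl6 (0.013), none of them called. Rpl23a also lost its call with no filter (adjusted p = 0.114), in DESeq2 (0.0525), with the GC offset (0.116), against a 1.2-fold change (1) and after thinning (0.0536), over a range from 2.19e-05 to 1. Its log2 fold change of 0.17 came to 0.32 with the length offset, 0.35 with the offset for transcript length and 0.37 with the replicate block and length offset. A planned fit on members with whole counts only gave no value, because Rpl3l, Rpl10l and Rpl39l alone had them. The shallowest library, RNA-Best 2 with 4909418 counts, limits Rpl24 most, at 12.50 counts.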
